A study of Mus musculus with 8 samples.

Results

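RNA-seq of RAW264.7 cells, a mouse macrophage-like cell line, was examined for Nos2, which encodes inducible nitric oxide synthase, and for 9 genes of arginine, cofactor and polyamine metabolism. The 7 described beside Nos2 were Gch1, Slc7a2, Ass1, Asl, Odc1, Srm and Sms. Each was found by its symbol, and the 10 genes had 1 row each among the 22013 genes deposited. Nos2 was selected on its fold change and adjusted p in this same comparison, and the others were chosen by their place in its pathway with the same results known. The values of the 10 genes are therefore a description, and no p-value is given for them. Cells had received recombinant FSTL1 (rFSTL1, 100 ng/mL for 24 h) in 4 libraries and PBS in 4 libraries. No other agent or genetic change is named for either group, and whether the libraries of a group came from separate cultures is not stated. The spread between libraries may therefore be technical. The question was how rFSTL1 alters the expression of these macrophage genes.

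Macrophages use arginine in competing ways. Inducible nitric oxide synthase converts it to nitric oxide and citrulline, needs tetrahydrobiopterin as a cofactor, and is a textbook marker of classical activation. Other enzymes convert it to ornithine and urea. Ornithine feeds the polyamines putrescine, spermidine and spermine, while citrulline can be rebuilt into arginine.

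The study also lists a qPCR primer pair for Nos2 (as iNOS), shown here because it is labelled as the assay of this gene outside the sequencing. Both primers are written 5′ to 3′.
iNOS(mus) forward: cagggagaacagtacatgaacac
iNOS(mus) reverse: ttggatacactgctacaggga
Each was searched as an exact match in the GENCODE M21 mouse transcripts. Neither primer of the pair labelled iNOS(mus) was found in a Nos2 transcript. The best ungapped match in a Nos2 transcript, on either strand, was 15 of 23 bases for the forward primer and 13 of 21 for the reverse primer. Both ends of this pair matched 3 transcripts of Inpp5a, which encodes an inositol polyphosphate 5-phosphatase, with amplicons of 254 or 305 bases. Among 19 primer pairs labelled as mouse, 14 had both ends on a transcript of the labelled gene. For this count the forward primer was searched as written and the reverse primer as its reverse complement. A pair listed in swapped order would be missed, so the count depends on the listed order. The Nos2 values below come from sequencing and do not use these primers. Inpp5a was measured by 59 to 110 counts per library, with a mean of 4.11 CPM (a library-scaled read count, defined below) under PBS and 5.18 CPM under rFSTL1. The log2 fold change of Inpp5a was 0.33 (standard error 0.15, adjusted p = 0.287 by edgeR with Benjamini-Hochberg adjustment).

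The total estimated count was 15062023 to 20234477 per library. Levels are given in CPM, the usual read count relative to library size, here with TMM-normalized library sizes. Of all genes, 10748 passed edgeR's expression filter and were tested with edgeR's quasi-likelihood test. A gene was called when its Benjamini-Hochberg adjusted p over all genes tested was under 0.05, which held for 37 genes, or 0.344%, of which 35 (0.326%) were higher under rFSTL1 and 2 (0.0186%) lower. DESeq2 called 1.69% of the genes and quality-weighted limma voom 4.22%, while edgeR called 1.24% at an adjusted p under 0.1. The counts of paired libraries differed more among the rFSTL1 libraries (chi-square per degree of freedom of 4.54 to 19.6) than among the PBS libraries (3.10 to 4.25), with rFSTL1 replicates 2 and 4 farthest apart. All 7 macrophage markers listed were expressed, with Csf1r at 1255 CPM and Cd68 at 896 CPM under PBS, while the F4/80 gene Adgre1 had 3.43 CPM. None of the 19 endothelial, hepatocyte, fibroblast, T cell and B cell markers passed the filter, and the highest count of any of them in a library was 13, for the hepatocyte gene Alb in rFSTL1 replicate 2. The hepatocyte genes Apoa1 and Ttr, with 2 counts each, and Cps1, with 4, also had counts in that library and in no other.

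Nos2 rose under rFSTL1 by 1.91-fold and was the 1 gene of the 10 that was called. Of the other 7 described here, 6 were tested and not called, and Slc7a2 had 0 counts in every library. Under DESeq2 and limma voom the number of the 10 genes called was also 1. By edgeR, 3 of the 7 tested genes had an unadjusted p under 0.05, as did 1704 of all 10748 genes tested (15.9%), the share beside which each such count below stands. The groups did not overlap for 2 of the 7, Nos2 and Odc1, and this held for 8.16% of all genes tested (4.63% higher under rFSTL1 and 3.53% lower). The 7 log2 fold changes were all positive, with a median of 0.10, against 0.01 over all genes tested. The genes were selected with this comparison known, so nothing is read from these shares. In bulk RNA, a change in the number of expressing cells and a change in RNA per cell cannot be told apart.

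**Figure D1:**
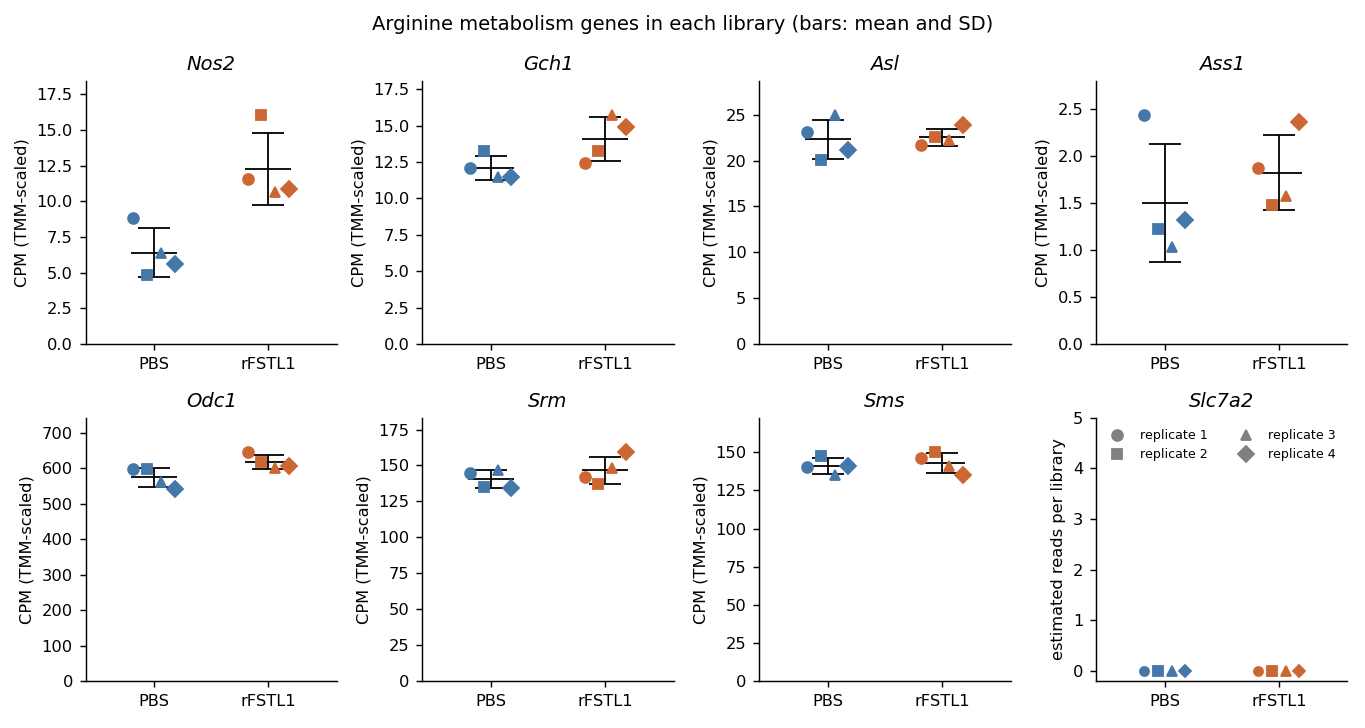
Expression of 8 of the 10 genes in each library. For 7 genes the vertical axis gives TMM-scaled CPM from 0, with PBS in blue, rFSTL1 in orange, a marker shape for each replicate, and the mean with its SD as black bars; the last panel gives estimated reads per library for Slc7a2. Nos2 lies between 4.82 and 8.81 CPM under PBS and between 10.6 and 16.0 CPM under rFSTL1.

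For nitric oxide synthesis itself, Nos2 (ENSMUSG00000020826) had 145, 87, 130 and 85 counts in PBS replicates 1 to 4 and 173, 260, 203 and 212 counts in rFSTL1 replicates 1 to 4. In CPM these were 8.81, 4.82, 6.42 and 5.59 under PBS and 11.6, 16.0, 10.6 and 10.9 under rFSTL1. The lowest rFSTL1 library thus lay above the highest PBS library, PBS replicate 1, and rFSTL1 replicate 2 stood above the other rFSTL1 libraries. Of these extremes, rFSTL1 replicate 2 held the hepatocyte gene counts and PBS replicate 1 was among the libraries with fibroblast gene counts. Whether such counts bear on Nos2 was not tested. The PBS mean was 6.41 ± 1.73 CPM and the rFSTL1 mean 12.3 ± 2.53 CPM (SD, n = 4 each). The log2 fold change was 0.93 (standard error 0.17, 95% interval 0.57 to 1.299), an interval of 1.49 to 2.46 as a fold. Both lone extremes moved the size: it was 1.11 without PBS replicate 1 and 0.78 without rFSTL1 replicate 2, and Nos2 was called in both fits. The call was lost without PBS replicate 2, 3 or 4 or rFSTL1 replicate 3, with log2 fold changes of 0.82, 0.94, 0.87 and 1.00. The number of genes called anywhere in these 4 fits fell to 11, 12, 12 and 16.

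**Figure D2:**
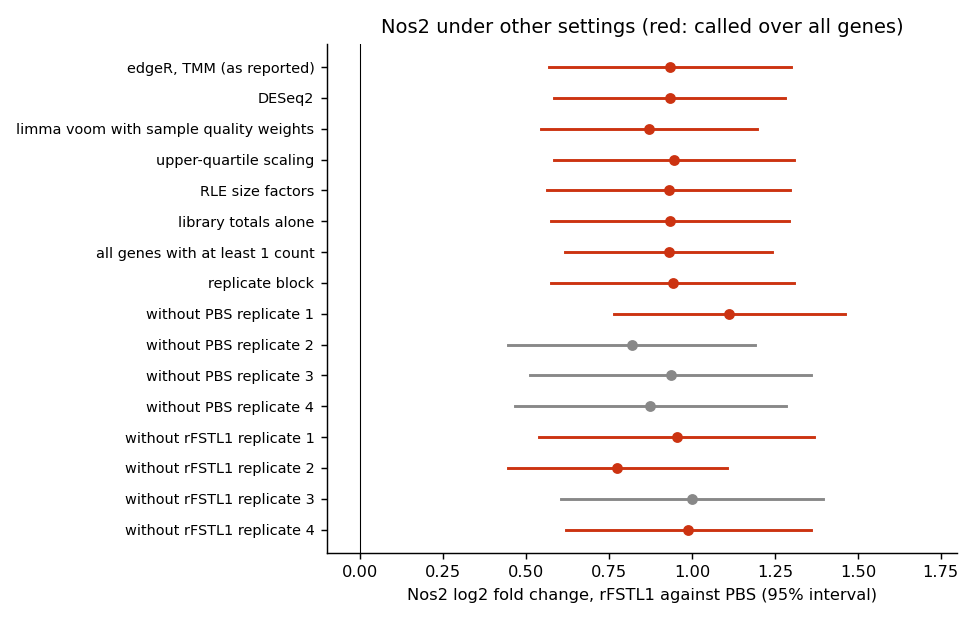
Nos2 log2 fold change of rFSTL1 against PBS under the reported fit and 15 other settings. Points are estimates and lines are 95% intervals, in red where Nos2 was called over all genes tested and in grey where it was not. The estimates run from 0.78 to 1.11. Every setting reuses libraries of the comparison in which Nos2 was selected, so the intervals are a description and no test.

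The spread of Nos2 within groups was wider than counting error. Its coefficient of variation was 27.0% under PBS and 20.6% under rFSTL1, against 9.46% and 6.87% expected from the mean counts of 112 and 212 alone. The within-group chi-square per degree of freedom was 7.87 and 8.87 for Nos2, and the median over all genes tested was 1.92 under PBS and 3.13 under rFSTL1. By this measure Nos2 lay above the median gene in the same libraries. The measure also depends on the count, and the comparison was not matched for expression level. Odc1, at mean counts of 10070 under PBS and 10750 under rFSTL1, had values of 21.1 and 10.85. Its coefficients of variation were only 4.71% and 3.28%.

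The other nitric oxide synthases were low. Nos1, the neuronal enzyme, had 68 to 145 counts per library, and Nos3, the endothelial enzyme, had at most 5. Per kilobase of transcript, Nos1 had a level of 0.478 ± 0.0618 CPM per kb (SD, n = 4) and Nos2 of 1.53 ± 0.412 under PBS. The PBS libraries did not overlap between these genes. The Nos1 log2 fold change was 0.18, with a standard error of 0.17, and Nos1 was not called. Without rFSTL1 replicate 4 it was -0.02.

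Gch1 encodes GTP cyclohydrolase 1, the entry step of tetrahydrobiopterin synthesis. It had 12.1, 13.3, 11.5 and 11.5 CPM in PBS replicates 1 to 4 and 12.4, 13.2, 15.7 and 14.9 CPM in rFSTL1 replicates 1 to 4. PBS replicate 2 lay above rFSTL1 replicates 1 and 2, so the groups overlapped, while rFSTL1 replicates 3 and 4 were the highest. Its log2 fold change was 0.22 (standard error 0.10, 95% interval 0.02 to 0.43), and it was not called. Its coefficient of variation was 6.97% under PBS, where counting error alone gives 6.87%, and 10.6% under rFSTL1, where it gives 6.35%. Of 7 other genes for this cofactor, 6 were tested and none was called by edgeR, DESeq2 or limma voom, with 1 at an unadjusted p under 0.05 by edgeR (15.9% of all genes). Among the most abundant were Qdpr at 58.5 ± 1.37 and 61.6 ± 6.21 CPM and Pts at 30.3 ± 3.08 and 26.8 ± 3.60 CPM under PBS and rFSTL1 (SD, n = 4). Qdpr encodes an enzyme that regenerates the cofactor, and Pts encodes a synthesis step; Pcbd1, a recycling enzyme, had 0 counts in all 8 libraries.

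Slc7a2, the cationic amino acid transporter linked to inducible nitric oxide synthase in macrophages, had 0 counts in all 8 libraries. A count of 0 allows a level of up to 3 counts per library, or 0.148 to 0.200 CPM, and this limit covers counting error alone. Slc7a1, the broadly expressed transporter of the same family, had 3285 to 4567 counts per library. The PBS mean was 219 ± 4.65 CPM and the rFSTL1 mean 224 ± 6.63 CPM (SD, n = 4 each), a log2 fold change of 0.04 (standard error 0.04). Slc3a2, the heavy chain of several amino acid transporters, had 144 CPM under PBS and 147 CPM under rFSTL1, and Slc7a6, a light chain that exchanges cationic amino acids, had 99.3 and 94.95 CPM. Of 8 other transporters listed, 6 were tested and none was called by the 3 tools, with 1 at an unadjusted p under 0.05 by edgeR (15.9% of all genes).

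Asl and Ass1 encode argininosuccinate lyase and synthase, which together rebuild arginine from citrulline. Asl had 23.1, 20.1, 24.9 and 21.2 CPM in PBS replicates 1 to 4 and 21.7, 22.5, 22.2 and 23.8 CPM in rFSTL1 replicates 1 to 4. All 4 rFSTL1 values lay inside the PBS range. The log2 fold change of Asl was 0.01 (95% interval -0.15 to 0.18). Ass1 was the scarcest of the tested genes, with 40, 22, 21 and 20 counts in PBS replicates 1 to 4 and 28, 24, 30 and 46 in rFSTL1 replicates 1 to 4. The highest PBS library was replicate 1, as for Nos2, and the groups overlapped. The log2 fold change of Ass1 was 0.30, with a 95% interval of -0.30 to 0.90 that spans both a decrease and an increase. Without PBS replicate 1 it was 0.62, and Ass1 was not called in that fit either.

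Odc1 encodes ornithine decarboxylase, the first step from ornithine to the polyamines, and was the most abundant of the 10 genes. It had 597, 598, 562 and 543 CPM in PBS replicates 1 to 4 and 646, 618, 600.2 and 608 CPM in rFSTL1 replicates 1 to 4. The groups did not overlap, but the gap was narrow, from 597.7 CPM in PBS replicate 2 to 600.2 CPM in rFSTL1 replicate 3. The log2 fold change was 0.10 (standard error 0.04, 95% interval 0.01 to 0.20), a 1.07-fold difference, and Odc1 was not called. Srm, spermidine synthase, had 135 to 147 CPM under PBS and 137 to 159 CPM under rFSTL1. Sms, spermine synthase, had 135 to 148 CPM under PBS and 135 to 150 CPM under rFSTL1. The groups overlapped for both genes, and the log2 fold changes were 0.06 (95% interval -0.04 to 0.17) for Srm and 0.02 (95% interval -0.08 to 0.12) for Sms. As folds, the upper bounds of these intervals were 1.13 for Srm and 1.09 for Sms. They reflect only the spread between these libraries, so larger changes are not excluded.

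**Figure D3:**
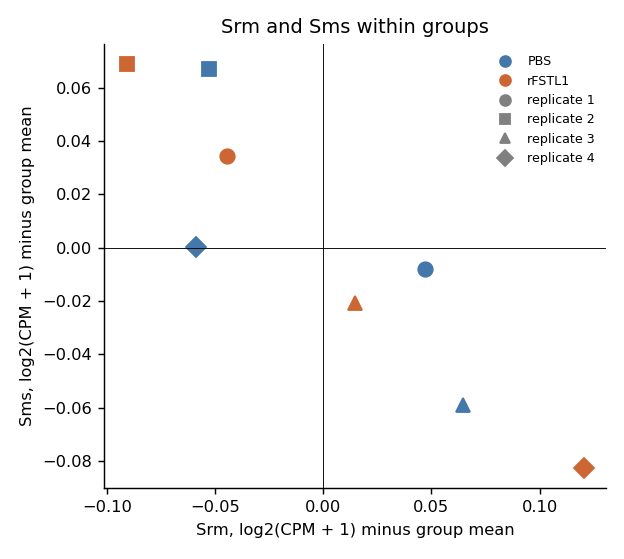
Deviation of Srm (horizontal axis) and Sms (vertical axis) from their own group mean, on the log2(CPM + 1) scale, 1 point per library with PBS in blue, rFSTL1 in orange and a marker shape for each replicate. Libraries with a higher Srm have a lower Sms, with r = -0.913 over the 8 libraries.

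Within the groups, Srm and Sms deviated in opposite directions. Over the 8 libraries, the deviations of log2(CPM + 1) from the group means had a Pearson r of -0.913 and a Spearman rho of -0.905. Without the 2 libraries farthest from the median of the Srm deviations, PBS replicate 3 and rFSTL1 replicate 4, r was -0.765 over the other 6. This was the pair of largest size among 21 pairs of the 7 tested genes and was chosen after its value was seen, so it is a description with no test. Every point is a library, so the values share its depth and composition, and the longest coding transcripts of Srm and Sms differ in length, at 1338 and 3717 bases. The part of library composition in this relation was not tested. For Nos2 the deviations correlated with those of Asl (r = 0.442), Ass1 (0.367), Odc1 (0.226), Sms (0.12), Srm (-0.025) and Gch1 (-0.43), again over 8 libraries and with no test.

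Among other polyamine genes, Smox rose under rFSTL1. Smox encodes spermine oxidase, which turns spermine back into spermidine. It had 27.1, 24.0, 26.2 and 24.4 CPM in PBS replicates 1 to 4 and 32.9, 29.8, 31.3 and 34.4 CPM in rFSTL1 replicates 1 to 4, with no overlap. The log2 fold change was 0.34 (standard error 0.07, 95% interval 0.19 to 0.48), and the adjusted p was 0.046 by edgeR with Benjamini-Hochberg adjustment. This adjusted p lay just under the threshold. Over the 15 other settings it ran from 0.00495 to 0.236, and the call was lost in 10 of them, among them the fits without any 1 of 4 PBS libraries, at 0.0604 to 0.236, and those without rFSTL1 replicate 1, 3 or 4. With the replicate number as a block it was 0.0567. Smox was the 1 gene called among 15 polyamine genes tested, of 17 listed, beside 0.344% of all genes tested. Eif5a, whose protein carries a spermidine-derived residue, had 1079 ± 18.8 CPM under PBS and 1129 ± 36.0 CPM under rFSTL1. Azin1, an inhibitor of the antizymes that mark ornithine decarboxylase for breakdown, had 298 ± 11.3 and 275 ± 15.5 CPM, and the polyamine transporter Atp13a3 had 251 ± 10.8 and 229 ± 22.2 CPM (SD, n = 4). None of these 3 was called.

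**Figure D4:**
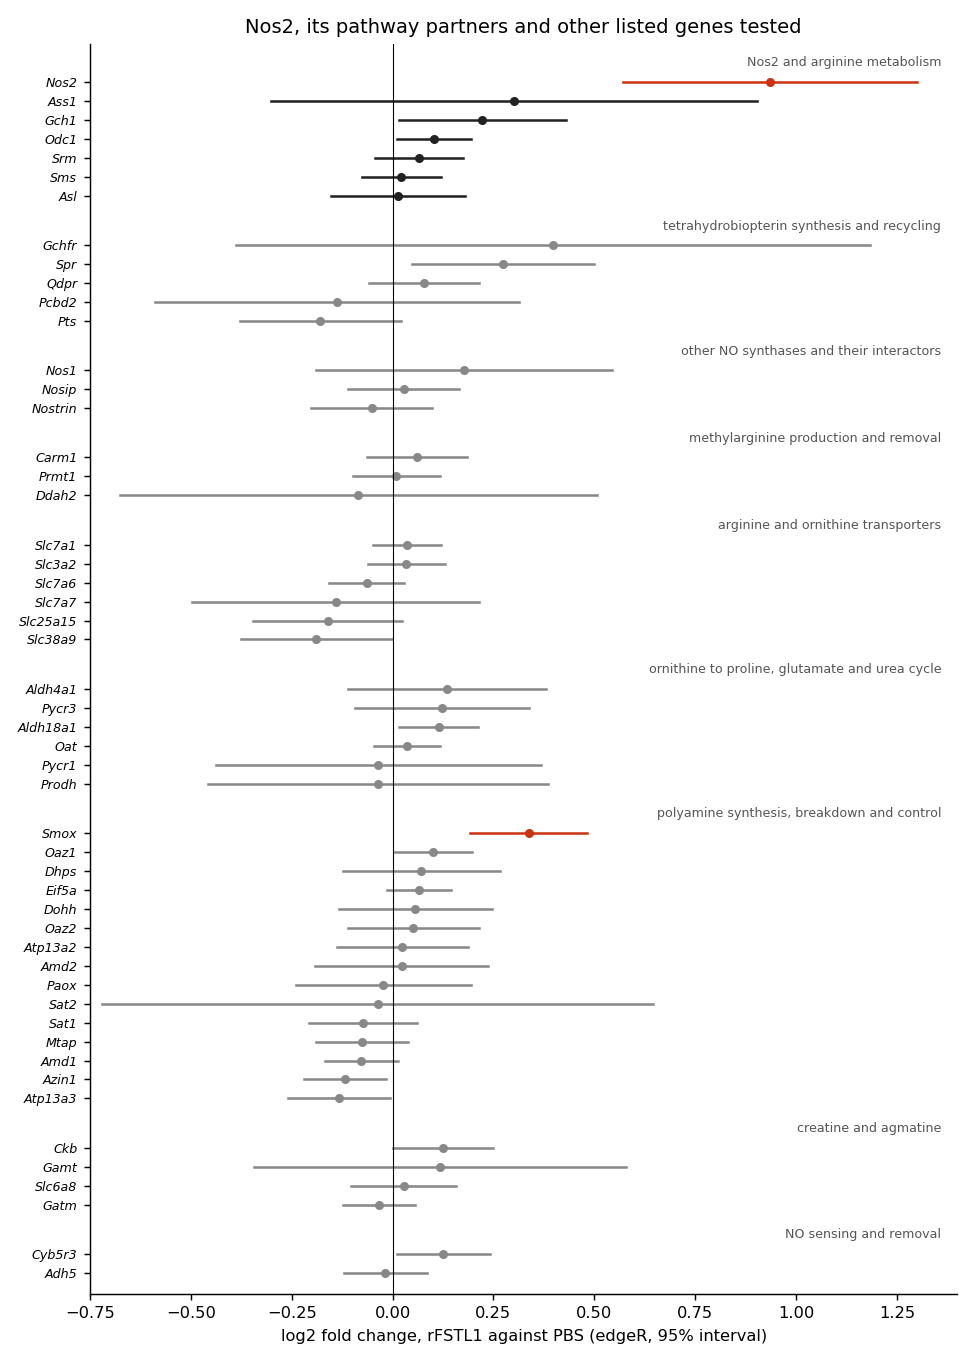
Log2 fold change of rFSTL1 against PBS (edgeR) for the 7 tested genes of the 10 and for 44 other listed genes, with 95% intervals. Red marks the genes called over all genes tested, black the other tested genes of the 10 and grey the other listed genes. Nos2 at 0.93 and Smox at 0.34 are the genes in red, and 43 of the 44 other listed genes are in grey.

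Of 61 listed genes of arginine, nitric oxide and polyamine metabolism outside the 10, 46 were tested, Smox was called higher and none was called lower. DESeq2 and limma voom also called 1 of them. Over all genes tested, edgeR called 0.344%, DESeq2 1.69% and limma voom 4.22%, so nothing particular to the list is read from a count of 1. By edgeR 9 of the 46 had an unadjusted p under 0.05, beside 15.9% of all genes tested. The median log2 fold change of the 46 genes was 0.03, beside 0.01 over all genes tested, with 26 positive and 20 negative. Oat, which converts ornithine towards proline and glutamate, had 159 ± 3.44 CPM under PBS and 164 ± 1.79 CPM under rFSTL1. Aldh18a1, which makes a shared precursor of proline and ornithine, had 84.7 ± 3.19 and 91.6 ± 3.40 CPM (SD, n = 4). The urea cycle genes Otc, Cps1 and Nags had at most 4 counts in any library. Prmt1 and Carm1, which methylate arginine in proteins, had 201 and 166 CPM under PBS and 202 and 174 CPM under rFSTL1. Of the enzymes that clear the synthase inhibitor methylarginine, Ddah1 had 0 counts in all 8 libraries and Ddah2 had 12 to 25 counts. Nosip and Nostrin, whose proteins bind nitric oxide synthase, had 45.2 and 27.2 CPM under PBS and 46.0 and 26.3 CPM under rFSTL1. Gatm, Slc6a8 and Ckb, of creatine synthesis, uptake and use, had 126, 117 and 104 CPM under PBS and 124, 119 and 113 CPM under rFSTL1. The subunits of the nitric oxide receptor, Gucy1a1 and Gucy1b1, had at most 4 counts in any library, while Adh5, which removes nitrosoglutathione, had 108 ± 4.97 CPM under PBS and 107 ± 4.97 CPM under rFSTL1. Cyb5r3, a reductase that renews heme proteins, had mean levels of 91.9 and 100.1 CPM and was not called.

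Levels were also compared per length of the longest coding transcript, in CPM per kb. Under PBS the order from the top was Odc1 (260.5 ± 12.3), Srm (105 ± 4.73), Sms (38.0 ± 1.38), Asl (9.25 ± 0.884), Gch1 (4.36 ± 0.302), Nos2 (1.53 ± 0.412) and Ass1 (0.884 ± 0.372), as mean and SD over 4 libraries. The ranges of neighbours did not overlap between libraries, except those of Nos2 and Ass1. The order was the same under rFSTL1, where Nos2 (2.93 ± 0.603) and Ass1 (1.07 ± 0.235) no longer overlapped. Nos2 thus remained below Gch1 in CPM per kb in each of the 4 rFSTL1 libraries.

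**Figure D5:**
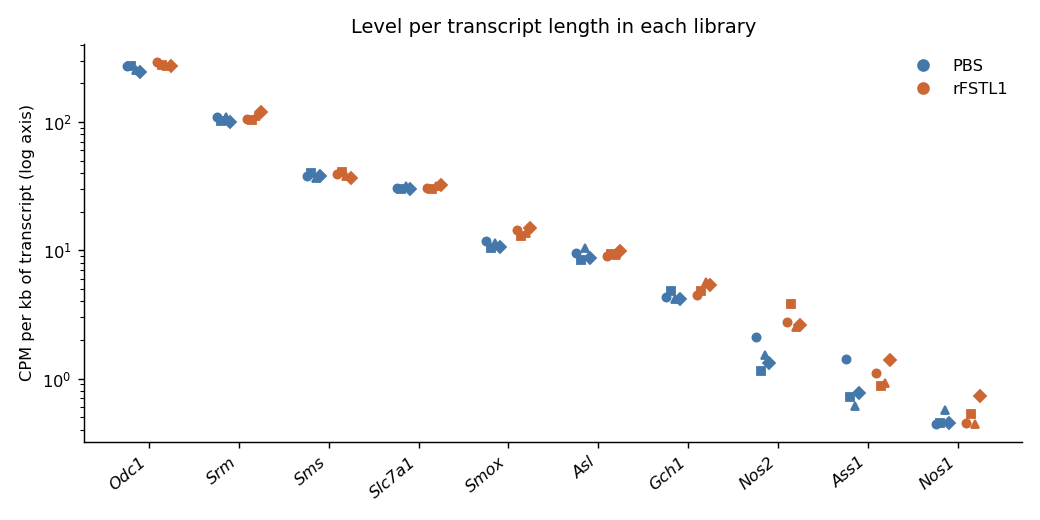
Level of the 7 tested genes and of Slc7a1, Smox and Nos1 in CPM per kb of the longest coding transcript, on a log axis, with 1 point per library in blue for PBS and orange for rFSTL1. The genes run from Odc1 at 260.5 CPM per kb to Nos1 at 0.478 CPM per kb under PBS, and Nos2 keeps its place between Gch1 and Ass1 in both groups.

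The 5 tested genes whose deviations from the group means were most like those of Nos2 were Nfu1 (r = 0.968), Pard6b (0.941), Zfp668 (0.941), Egr2 (0.939) and Ppihl (0.933), over 8 libraries and 10747 genes compared. None of the 5 was called between the groups by edgeR, and the largest log2 fold change among them was 0.36, for Egr2. The highest r found for the other 6 tested genes was 0.974 to 0.992, so values of this size occurred for every one of them and nothing is read from these names.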

How the data were processed

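Messenger RNA enriched with oligo(dT) beads was sequenced in 4 PBS and 4 rFSTL1 libraries. The authors deposited expected counts (estimated counts) per Ensembl gene without normalization. The submitters' processing notes name Bowtie2 2.2.8, HISAT2, StringTie 1.3.1 and DESeq2. Their roles, the genome build and the annotation are not given in the sources used here, so no coordinates are printed. Of nonzero values, 13% were not whole, and all were rounded, where the design had allowed for whole counts. Groups came from the treatment labels.

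Genes were kept by filterByExpr (minimum count 10), scaled by TMM and compared with edgeR 4.0.16 (glmQLFit, glmQLFTest) in R 4.3.3 over all 10748 genes, with Benjamini-Hochberg adjustment. Alternatives were DESeq2 1.42.0, limma 3.58.1 voom with sample quality weights, other scalings and filters, a replicate block and leaving out each library. Transcripts and lengths came from GENCODE M21, which holds 21827 (99.2%) of the deposited identifiers. The 10 genes and all gene lists were chosen with earlier results of these data known. Named outside the 10 are called genes and the 3 most abundant tested genes of each list, plus genes with few counts. Adgre1, Alb, Apoa1, Ttr, Col1a1, Col1a2, Dcn, Pdgfra, Irf8, Cebpb, Cxcl10, Cd80, Cd86 and Inpp5a were added after their values were seen. Between libraries with the same replicate number, the deviations had correlations of -0.09, 0.08, -0.01 and 0.00. These values cannot show whether such libraries were handled together. A few of the genes chosen are counted in these totals but not reported here by name.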

Additional observations from a re-analysis of the deposited data

How the results depend on the processing

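Under the 15 alternatives, Nos2, Gch1, Ass1, Odc1 and Srm kept a positive log2 fold change, at 0.78 to 1.11, 0.16 to 0.28, 0.14 to 0.62, 0.07 to 0.12 and 0.02 to 0.09. Leaving out 1 library, Asl ran from -0.034 (without PBS replicate 2) to 0.0745 (without PBS replicate 3), and was also negative without PBS replicate 4 (-0.0154) and rFSTL1 replicate 4 (-0.0141). Sms ran from -0.0093 (without rFSTL1 replicate 2) to 0.0487 (without rFSTL1 replicate 4), and Nos1 from -0.0182 (without rFSTL1 replicate 4) to 0.28 (without PBS replicate 3), and none was called. For 37 genes called over all genes, DESeq2 gave 182 (130 higher, 52 lower), limma voom 454 (244 higher, 210 lower), upper-quartile scaling 56, all genes with at least 1 count 127 and an adjusted p under 0.1 133. Leaving out 1 library gave 11 to 99 genes over all, 0 to 1 of the 10 genes and 0 to 1 of the other pathway genes. The pathway count was also 0 with RLE size factors, with library totals alone and with the replicate block, since Smox then passed 0.05 (adjusted p = 0.0528, 0.0515 and 0.0567 by edgeR with Benjamini-Hochberg adjustment, of 0.00495 to 0.236 over its alternatives). With the replicate block, Nos2 had a log2 fold change of 0.94 and 41 genes were called; beside Smox, the block changed no call among the 10 genes. What causes these differences was not tested. Scaling by library totals alone moved none of the 14 group means of the 7 tested genes by more than their SD. For Nos2, at 85 to 260 counts per library, the coefficient of variation within groups (27.0% and 20.6%) exceeded that of counting alone (9.46% and 6.87%). For Ass1, at 20 to 46 counts, counting alone gives 19.7% under PBS and 17.7% under rFSTL1, of 42.1% and 21.9% measured.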

Other observations

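Of 10 transcription factors known to act on Nos2, all were tested and edgeR called none, with 4 at an unadjusted p under 0.05, beside 15.9% of all genes tested. DESeq2 called Irf8. Limma voom called Irf8 and Cebpb higher and Hif1a lower, with log2 fold changes of 0.26, 0.30 and -0.16 and adjusted p of 0.0181, 0.0469 and 0.0435 by Benjamini-Hochberg adjustment, where it called 4.22% of all genes and DESeq2 1.69%. By edgeR those of Cebpb and Hif1a were 0.29 and -0.13, with adjusted p of 0.212 and 0.234. Irf8, an interferon regulatory factor of macrophages, had 54.0, 53.0, 57.3 and 48.6 CPM in PBS replicates 1 to 4 and 62.7, 59.1, 66.4 and 62.6 CPM in rFSTL1 replicates 1 to 4. The groups did not overlap for 2 of the 10 factors, Irf8 and Jun, as for 8.16% of genes tested. The log2 fold change of Irf8 was 0.23 (standard error 0.06). Its adjusted p was 0.0951 by edgeR, 0.0313 by DESeq2 and 0.0181 by limma voom with Benjamini-Hochberg adjustment. Over the 15 alternatives this adjusted p ran from 0.0181 to 0.33. The most abundant of the list were Hif1a, a hypoxia-inducible factor, at 325 ± 6.45 CPM under PBS and 298 ± 21.5 CPM under rFSTL1, Nfkb1, an NF-κB subunit, at 146 ± 4.26 and 148 ± 3.08 CPM, and Jun, an AP-1 subunit, at 136 ± 2.26 and 147 ± 6.01 CPM (SD, n = 4).

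Of 10 other markers of classical activation, 6 were tested and none was called by edgeR, DESeq2 or limma voom, with 1 at an unadjusted p under 0.05 by edgeR, beside 15.9% of all genes tested. Of the 6, 3 had a positive and 3 a negative log2 fold change, with a median of -0.09. Acod1, which makes itaconate, had 25.5 ± 2.24 CPM under PBS and 28.7 ± 2.80 CPM under rFSTL1, and the cytokine gene Tnf had 80.3 ± 2.64 and 87.5 ± 4.67 CPM (SD, n = 4). Ptgs2, an inducible cyclooxygenase, had 347 to 445 counts in the PBS libraries and 413 to 474 in the rFSTL1 libraries. These 3 had log2 fold changes of 0.17, 0.12 and 0.20 in this order. The other 3, at 10 to 44 counts per library, were the chemokine gene Cxcl10 (-0.30) and the costimulatory genes Cd80 (-0.43) and Cd86 (-0.42). The untested Il1b, Il6, Il12b and Cxcl9 had at most 3 counts in any library. Of 8 other markers of alternative activation, 3 were tested and none was called by the 3 tools, with 1 at an unadjusted p under 0.05 by edgeR (15.9% of all genes), and the 5 untested ones, among them Mrc1, Chil3 and Retnla, had at most 6 counts in any library. Il4ra, a receptor subunit for interleukin 4, had 4.54 ± 1.00 and 4.49 ± 0.249 CPM, and Clec10a, a lectin receptor, had 0.863 ± 0.113 and 1.41 ± 0.557 CPM (SD, n = 4). The log2 fold changes of the 3 tested genes were -0.01 for Il4ra, 0.73 for Clec10a and 0.36 for Egr2, with a median of 0.36. Clec10a had 11 to 37 counts per library and Egr2 had 17 to 37.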
